A study of Mus musculus with 4 samples.

Results

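The 9 genes described here encode the transcription factor STAT5 (Stat5a and Stat5b), the inhibitors of cytokine signalling that STAT5 and its relatives induce (Cish, Socs1, Socs2 and Socs3) and the PIM kinases (Pim1, Pim2 and Pim3). They are 9 of the 16142 genes in an RNA-seq table of stimulated mouse CD4+ T cells, and all 9 were found in it. They were chosen from the FPKM values of the same comparison that is described below, with its results already known, so their differences between the groups are a description and carry no test.

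The study asked what a form of the RNase Regnase-1 that MALT1 cannot cleave does to T cells. Regnase-1 is encoded by Zc3h12a, and the uncleavable form is called R111A. There were 2 libraries of WT cells, from B6 mice, and 2 libraries of R111A cells, from Cd4CreERT2 LSL-R111A fl/fl mice, in which a Cre recombinase made under Cd4 control and switched on by tamoxifen removes a stop in front of the transgene. Tamoxifen was injected into the peritoneum at 75 mg/kg for 5 days. The protocol can be read as giving it to both groups, and WT control mice in other assays of this work did receive it, but no source states it outright for these WT libraries. The WT mice lack both the Cre driver and the transgene, so an effect of either one cannot be told apart from an effect of the R111A protein. In both groups CD4+ T cells were purified from the spleen with magnetic beads, sorted by FACS and cultured for 12 h with anti-CD3 (5 µg/mL) plus anti-CD28 (1 µg/mL), and polyA RNA was then sequenced. The labels give no age, and mice of either sex, in general 6 to 12 weeks old, were used. Nor do the labels say that the libraries of a group came from separate mice, so the p-values below measure only the spread between these samples, which may be technical.

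Cytokines such as IL-2 and IL-7 bind receptors that share a common gamma chain and activate the kinases JAK1 and JAK3. These phosphorylate STAT5, which enters the nucleus and induces survival and growth genes together with its own inhibitors. CIS and the SOCS proteins bind phosphorylated receptors or JAKs through an SH2 domain, and their SOCS box recruits a ubiquitin ligase. PIM kinases have no known regulatory domain and are active once translated, so the abundance of their transcripts and proteins sets much of their activity. In T cells they promote survival, cap-dependent translation and growth alongside the kinase AKT.

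The transgene's own gene was read first, as a check of the labels. Zc3h12a stood at 16.97 and 15.72 FPKM in WT cells and at 196.3 and 130.87 FPKM in R111A cells. FPKM is a number of reads scaled to transcript length and to library size, and reads of the transgene and of the mouse's own gene enter the same value. The R111A libraries lay far above the WT libraries, a difference of 3.22 on the log2(FPKM + 1) scale (standard error 0.19, adjusted p = 9.2e-06 from limma). R111A replicate 1 held more of this transcript than R111A replicate 2, an order that recurs among the genes below.

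The markers of T cells were present in every library. The 11 T cell markers summed to 2978.43 and 3016.65 FPKM in WT and to 2839.47 and 2609.14 FPKM in R111A, with Cd3g the highest in WT and the adaptor gene Lat the highest in R111A. Cd4 itself had levels of 157.54 and 131.28 FPKM (WT) and of 70.69 and 51.35 FPKM (R111A), so it was lower in both R111A libraries. Of the CD8+ T cell markers, Cd8a was near 0 in each library and Cd8b1, the most abundant, was at 7.21, 6.56, 3.86 and 4.39 FPKM in the order WT 1, WT 2, R111A 1 and R111A 2. Neither list went against the CD4+ label in any of the 4 libraries. Genes of regulatory T cells, which depend on IL-2 and STAT5, were mostly lower in R111A: the 4 markers summed to 210.08 and 226.06 FPKM in WT and to 63.91 and 70.04 FPKM in R111A. Each R111A library was below both WT libraries for 3 of them. The fourth, Ikzf2, was at 4.5, 4.34, 2.35 and 4.36 FPKM in the order WT 1, WT 2, R111A 1 and R111A 2. Most of that sum was Tnfrsf18, which activated conventional T cells also express, and Foxp3 fell from 11.31 and 8.78 FPKM to 2.86 and 1.86 FPKM. In bulk RNA, fewer cells of a type and less RNA per cell cannot be told apart. The paper's general sorting protocol gated cells with a GFP reporter, which the R111A transgene carries, and then separated regulatory from conventional T cells. Its RNA-seq methods name only sorted CD4+ T cells. Whether such a gate was used for these libraries is unknown, and its part in these values was not tested.

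Genes of resting naive T cells stood higher in R111A. For Ccr7, Klf2, Lef1, Tcf7, S1pr1 and Il7r the lower R111A value exceeded the higher WT value, and Ccr7, the most abundant of these, measured 369.71 and 349.26 FPKM in the WT libraries, against 588.14 and 511.21 FPKM in the R111A libraries. Markers of other blood cells were low but not equal between the groups. The NK cell list summed to 2.14 and 1.4 FPKM in WT and to 19.75 and 18.89 FPKM in R111A, mostly Klrd1 and Eomes, while its defining receptor Ncr1 did not exceed 0.3 FPKM. The erythroid list went from 0.66 and 0.7 FPKM to 12.93 and 12.97 FPKM through Hba-a1, with Hbb-bs and Hba-a2 listed at 0 in all libraries. The myeloid list summed to 86.82 and 86.12 FPKM in WT and to 109.02 and 123.37 FPKM in R111A, most of it Cst3, which alone was at 80.97, 83.19, 88.0 and 107.79 FPKM in the order used above, and 9 of its 12 genes were higher in both R111A libraries, with S100a9 at 0 throughout. The B cell list, with 6 of its 7 genes in the table, summed to 2.21, 1.0, 5.24 and 4.55 FPKM in the 4 libraries, led by Cd79a, and Pax5 did not exceed 0.06 FPKM. The part of these other cells or cell states in the results below was not tested.

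Of the 9 genes, 3 were higher and 6 lower in the R111A libraries, and no gene had overlapping groups on the deposited values. With each library rescaled to the same total (TPM), Pim3 (50.64, 54.67, 63.2 and 53.7) and Socs3 (5.55, 5.19, 7.64 and 5.24, both in the order WT 1, WT 2, R111A 1 and R111A 2) had overlapping groups. Among the 9831 genes whose mean reached 1 FPKM, which include all 9 members, groups did not overlap for 78.3%. By limma at an adjusted p under 0.05, 21.2% of tested genes were higher and 32.1% lower in R111A, and 2 members were higher and 6 lower. With a 2-fold change required as well, 8.52% of tested genes were higher and 8.34% lower, and 1 member (Pim1) was higher and 3 (Pim2, Cish and Socs2) lower. Socs3 was the member not past the adjusted p. These values chose the members, so nothing is read from the counts.

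**Figure D1:**
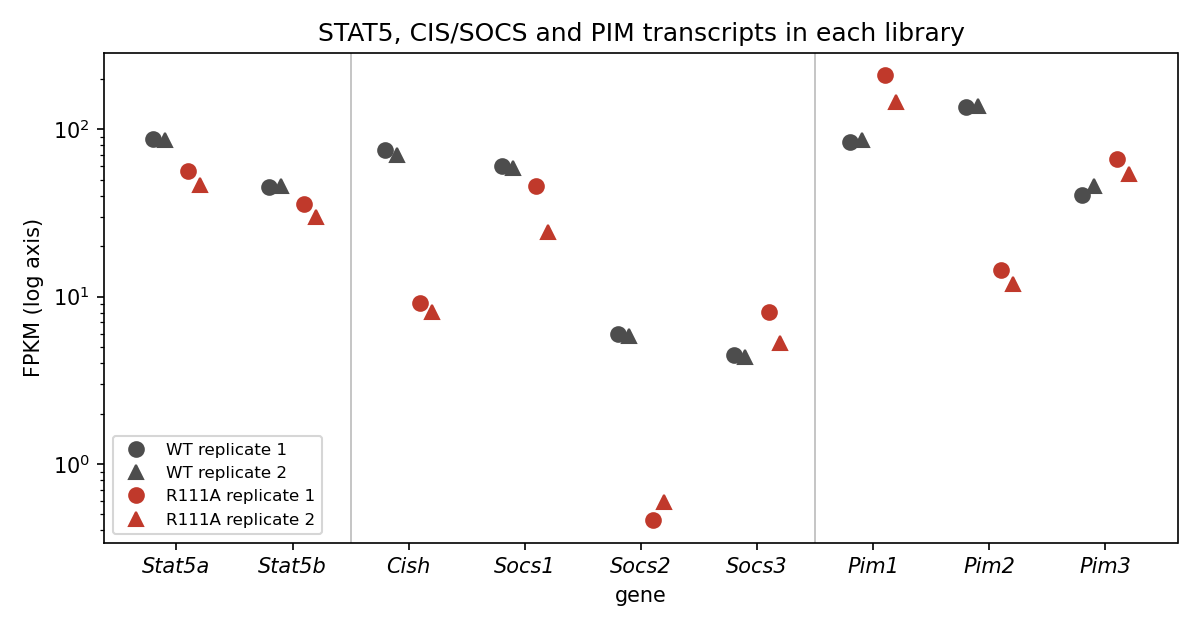
FPKM of the 9 genes in each of the 4 libraries, on a log axis, with WT libraries in grey, R111A libraries in red, replicate 1 as circles and replicate 2 as triangles. Pim2, Cish and Socs2 lie furthest below WT in R111A, Pim1 lies above, and the WT replicates sit closer together than the R111A replicates do for most genes.

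STAT5 exists as a pair of closely related proteins from neighbouring genes. Stat5b and Stat5a lie head to head on chromosome 11 of GRCm38.p6 (RefSeq), Stat5b at chr11:100780731-100859004 on the minus strand and Stat5a at chr11:100859351-100885169 on the plus strand, with 346 bases between them. Because their coding sequences are alike, reads from one may be assigned to the other, and the split between them is uncertain. Stat5a measured 87.73 and 86.74 FPKM in the WT libraries, against 56.6 and 46.62 FPKM in the R111A libraries. Both R111A libraries lay below both WT libraries, at a ratio of group means of 0.592 and a difference of -0.75 on the log2(FPKM + 1) scale (standard error 0.14). Stat5b stood at 44.93 and 45.57 FPKM in WT cells and at 35.87 and 29.89 FPKM in R111A cells, a smaller difference of -0.45 (standard error 0.14). The summed level of the pair went from 132.66 and 132.31 FPKM to 92.47 and 76.51 FPKM. Stat5a was the more abundant of the pair in every library, and the ratio of Stat5a to Stat5b was 1.95 and 1.9 in WT and 1.58 and 1.56 in R111A.

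CIS, encoded by Cish, is the founding member of the SOCS family and a classical STAT5 target that acts at the IL-2 receptor and downstream of the T cell receptor. STAT dimers bind the sequence TTCNNNGAA, a palindrome that reads the same on both strands. The RefSeq promoter windows (GRCm38.p6, from 250 bases before to 50 bases after an annotated start) were searched for it in the 8 members that have one, 11 windows in all. Socs2 had no entry. The windows of Cish and Socs3 held it and the other 9 windows did not. Of all 32851 windows of that length, 8.3% held at least 1 match and 0.457% held 2 or more. Cish held 2, one beginning at the annotated start and the other 11 bases on, and Socs3 held 1, at position -154 from a start. The same half-sites with 4 bases between them, the spacing that STAT6 prefers, occurred in none of the 11 windows and in 6.95% of all windows. The windows of Cish and of Pim2, the members with the largest differences on the log2(FPKM + 1) scale, are printed with that of Socs3, 5′ to 3′ on the gene's strand, with matches in capitals. They lie at chr9:107296409-107296708 (plus strand), chrX:7878056-7878355 (plus strand) and chr11:117969317-117969616 (minus strand).
Cish: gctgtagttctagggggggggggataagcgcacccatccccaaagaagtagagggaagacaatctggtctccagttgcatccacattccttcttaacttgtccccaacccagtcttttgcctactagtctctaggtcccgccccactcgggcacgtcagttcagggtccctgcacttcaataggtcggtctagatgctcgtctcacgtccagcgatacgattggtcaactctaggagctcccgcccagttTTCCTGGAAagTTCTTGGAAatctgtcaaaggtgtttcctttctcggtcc
Pim2: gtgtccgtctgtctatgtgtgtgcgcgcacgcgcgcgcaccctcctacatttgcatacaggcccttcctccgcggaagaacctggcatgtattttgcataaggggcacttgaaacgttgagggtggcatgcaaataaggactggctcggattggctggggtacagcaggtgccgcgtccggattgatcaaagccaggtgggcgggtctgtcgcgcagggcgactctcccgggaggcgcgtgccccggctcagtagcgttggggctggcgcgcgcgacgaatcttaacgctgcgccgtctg
Socs3: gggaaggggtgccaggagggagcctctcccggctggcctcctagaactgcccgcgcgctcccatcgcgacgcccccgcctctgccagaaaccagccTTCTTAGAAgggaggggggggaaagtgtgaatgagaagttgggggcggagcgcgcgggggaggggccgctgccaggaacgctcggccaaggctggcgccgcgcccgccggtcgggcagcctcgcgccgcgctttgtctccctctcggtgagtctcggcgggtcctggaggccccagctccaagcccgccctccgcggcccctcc
A match is a string of letters and does not show that a STAT protein binds there, and a window without one says nothing about binding outside it.

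Cish had levels of 75.54 and 70.15 FPKM (WT) and of 9.1 and 8.07 FPKM (R111A). The R111A level was 8.49-fold lower, a difference of -2.95 (standard error 0.14) that ranked 56 of 9831 tested genes by size. Socs2, which restrains growth hormone signalling and is itself induced by STAT5, measured 5.94 and 5.79 FPKM in the WT libraries, against 0.46 and 0.59 FPKM in the R111A libraries. Its R111A level was 11.2-fold lower by the ratio of mean FPKM. On the log2 scale with 1 FPKM added its difference was -2.17 (standard error 0.14), which understates the change of so low a gene, and it was -3.26 with 0.1 FPKM added and -0.98 with 5 FPKM added. So Cish and Socs2 were lower by similar ratios, from WT levels that differed more than 10-fold.

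Socs1 and Socs3 behaved otherwise. SOCS1, an inhibitor of JAK1, JAK2 and TYK2 that limits interferon-gamma and IL-2 signalling, had transcript levels of 60.1 and 58.44 FPKM in WT cells, against 45.73 and 24.46 FPKM in R111A cells. Both R111A libraries were lower, but by unequal amounts: the difference of -0.81 (standard error 0.25) became -0.37 without R111A replicate 2 and -1.24 without R111A replicate 1. Its size thus rested on which R111A library was read. SOCS3, which inhibits signalling through gp130, the shared receptor of the IL-6 family, was low in all libraries. Socs3 stood at 4.45 and 4.34 FPKM in WT cells and at 8.05 and 5.3 FPKM in R111A cells, a difference of 0.49 (standard error 0.19) that was 0.22 without R111A replicate 1 and 0.75 without R111A replicate 2. Cish made up 51.7% and 50.6% of the summed FPKM of these 4 genes in WT and 14.4% and 21.0% in R111A, while the sum itself went from 146.03 and 138.72 FPKM to 63.34 and 38.42 FPKM. Socs1 became the main transcript of the group in R111A, with 72.2% and 63.7%.

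The PIM kinases moved in opposite directions. PIM2, a STAT5-induced kinase that sustains lymphocyte survival and translation independently of mTOR, had the most abundant transcript of the 9 genes in WT. Pim2 had levels of 136.56 and 137.68 FPKM (WT) and of 14.4 and 11.92 FPKM (R111A). Its level was 10.4-fold lower, a difference of -3.29 (standard error 0.14) that ranked 26 of 9831 by size. PIM1, the family's first oncogene and likewise induced by cytokines and by T cell receptor signals, had transcript levels of 84.2 and 86.75 FPKM in WT cells, against 210.22 and 145.74 FPKM in R111A cells. Both R111A libraries were higher, at a ratio of means of 2.08 and a difference of 1.03 (standard error 0.18), which ranged from 0.76 to 1.29 as each library was left out. Pim3, the least studied member, measured 40.59 and 45.71 FPKM in the WT libraries, against 66.58 and 54.36 FPKM in the R111A libraries, a difference of 0.47 (standard error 0.15). Other annotated genes overlap Pim1, Pim3 and Socs2 over 760, 313 and 502 bases, and their reads may be counted with these.

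The summed level of the 3 PIM transcripts was 261.35 and 270.14 FPKM in WT and 291.2 and 212.02 FPKM in R111A, so on the deposited values the R111A libraries lay on either side of WT. On TPM the sums were 326.09 and 323.08 in WT, and the R111A sums of 276.4 and 209.46 were both lower. The makeup changed: Pim2 gave 52.3% and 51.0% of the sum in WT and 4.95% and 5.62% in R111A. Pim1 gave 32.2% and 32.1% in WT and 72.2% and 68.7% in R111A. These are levels per length of transcript and say nothing of protein or kinase activity, which were not measured in these libraries.

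**Figure D2:**
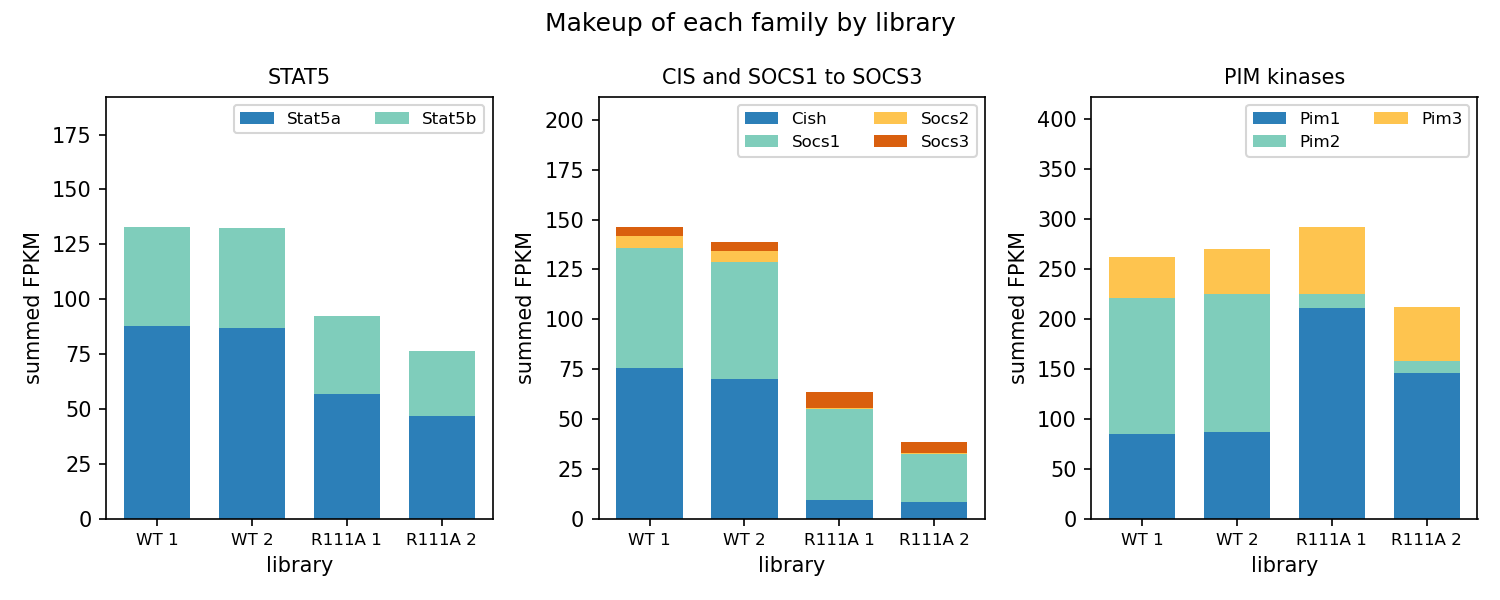
Summed FPKM of the STAT5 pair, of Cish with Socs1 to Socs3 and of the PIM kinases in each library, with each gene's part as a coloured segment. The Pim2 segment is smaller in both R111A libraries, and so is the CIS and SOCS sum.

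The order of the 9 levels differed between the groups. In WT it ran Pim2, Stat5a, Pim1, Cish, Socs1, Stat5b, Pim3, Socs2 and Socs3, from 137.12 to 4.39 FPKM by group means. The replicate ranges of Stat5a and Pim1 overlapped, as did those of Stat5b and Pim3, and the other neighbours were separate. In R111A it ran Pim1, Pim3, Stat5a, Socs1, Stat5b, Pim2, Cish, Socs3 and Socs2, from 177.98 to 0.52 FPKM. There, Pim3 overlapped with Stat5a and Socs1 with Stat5b. Pim2 and Cish, 1st and 4th in WT, stood 6th and 7th in R111A, below both STAT5 transcripts.

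The R111A replicates were less alike than the WT replicates. In 8 of the 9 genes R111A replicate 1 was above R111A replicate 2, Socs2 being the exception, with ratios of up to 1.87 for Socs1. The ratio of WT replicate 1 to WT replicate 2 lay between 0.888 for Pim3 and 1.08 for Cish. Over all tested genes no such one-sided shift was seen: R111A replicate 1 was the higher of its group in 48.4% of genes. The spread of the log2 ratio between replicates over those genes (a robust SD) was 0.318 in R111A and 0.135 in WT. Numbers of reads are unknown for FPKM values. Steps between low values put the depth of WT replicate 1 at 1.01 times the depth of WT replicate 2. The same steps put it at 1.06 and 1.19 times the depths of R111A replicates 1 and 2. By these estimates depth differed by less than 1.5 times. The estimates are rough between the groups, where the commonest ratio held only 22 of 667 and 22 of 614 low genes. Between the WT replicates it held 86 of 972.

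**Figure D3:**
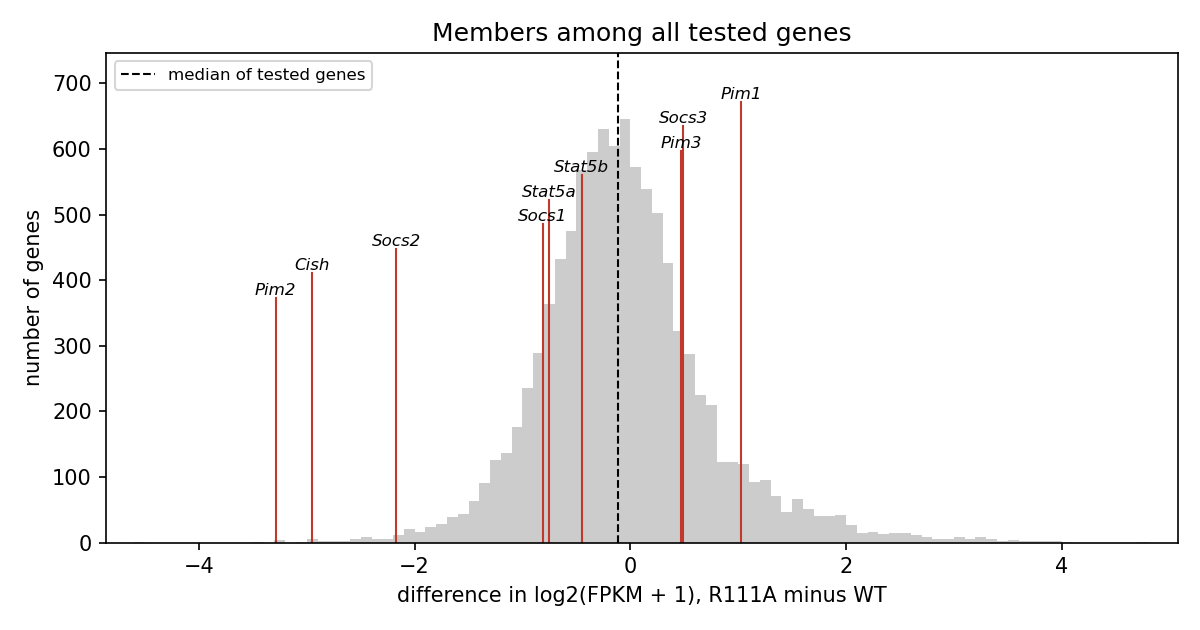
Number of tested genes by difference in log2(FPKM + 1), R111A minus WT, in bins of 0.1, with the 9 genes as red lines and the median of tested genes as a dashed line. Pim2 (-3.29) and Cish (-2.95) lie in the far left tail, and Stat5b (-0.45) lies within the bulk of genes.

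The genes whose profile over the 4 libraries lay nearest to Pim2 and to Pim1 were found by Euclidean distance between centred log2(FPKM + 1) values, among 7647 genes whose mean reached 5 FPKM. For Pim2 these were Lag3, which encodes an inhibitory receptor of activated T cells (distance 0.155), Pros1 (0.22), Ifitm2 (0.241), Cish (0.361) and Mcm3, a subunit of the replicative helicase (0.378). Lag3 stood at 72.68 and 64.55 FPKM in WT cells and at 7.12 and 5.97 FPKM in R111A cells. For Pim1 they were Ehd3 (0.066), Slc3a2, the heavy chain of amino acid transporters (0.067), the AP-1 gene Junb (0.072), the ribosomal protein gene Rpl38 (0.078) and Tmc8 (0.083). Junb had levels of 110.06 and 118.6 FPKM (WT) and of 294.05 and 197.33 FPKM (R111A). Distances over 4 libraries in 2 groups mostly reflect the group difference.

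The pathway around these genes was read from 8 lists, 96 genes besides the members, of which 87 were tested. Of these, 23 were higher and 33 lower at an adjusted p under 0.05 and 31 did not pass, with a median difference of -0.14, against 21.2% and 32.1% of all tested genes and a median of -0.12 for all genes. The median of the lists was -0.47 on TPM, where that of all genes was -0.42. It was -0.22 without WT replicate 2 and -0.09 without WT replicate 1. On TPM, or without either WT replicate, 15 were higher.

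Of 8 cytokines that signal through STAT5 or its relatives, 3 were tested. Of these, 3 were lower and 0 higher, against 32.1% and 21.2% of all tested genes, and with so few tested nothing is read from the count. Il2, the main growth factor that activated CD4+ T cells make for themselves, measured 100.13 and 96.9 FPKM in the WT libraries, against 3.98 and 2.58 FPKM in the R111A libraries. This difference of -4.56 (standard error 0.17, adjusted p = 2.7e-06) exceeded that of every member. Il4 fell from 10.22 and 15.47 FPKM to 1.42 and 0.7 FPKM (adjusted p = 3.7e-05). The other ligand that fell was Il13, which passed the filter through its WT values alone (6.01 and 5.98 FPKM). Its R111A values were 0.13 and 0.15 FPKM. A ligand this low in R111A could pass only by being higher in WT, so its direction adds nothing to the count. Il7, Il9, Il15, Il21 and Tslp were below the filter.

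Of 19 receptors tested, 5 were higher and 6 lower, against 21.2% and 32.1% of all tested genes. Their median of 0.08 was -0.24 after rescaling to TPM and -0.08 without R111A replicate 1. The 3 chains of the high-affinity IL-2 receptor differed by less than 1 on the log2 scale, unlike Il2. Il2ra, the alpha chain and a STAT5 target, stood at 140.21 and 136.12 FPKM in WT cells and at 127.3 and 128.61 FPKM in R111A cells, a difference of -0.11 (standard error 0.12, adjusted p = 0.47) that passed as lower on TPM (-0.443, adjusted p = 0.011) and changed sign under quantile normalization (0.13). Il2rb, the signalling beta chain, fell by 0.62 (standard error 0.14, adjusted p = 0.0058), a call lost with quantile normalization and without WT replicate 1. Il2rg, the common gamma chain, was at 347.56, 306.01, 476.25 and 388.17 FPKM in the order WT 1, WT 2, R111A 1 and R111A 2 (adjusted p = 0.046), and 7 of 14 alternatives ended that call, with adjusted p-values from 0.0068 to 0.71 over all 14. Il7r, which STAT5 signalling represses in activated cells, rose from 4.58 and 3.77 FPKM to 43.62 and 37.54 FPKM (adjusted p = 4.8e-06). Ifngr1, the ligand-binding chain of the interferon-gamma receptor, rose by 1.70 (adjusted p = 4.6e-05). Il12rb1, a chain of the IL-12 receptor, fell by 2.48 (adjusted p = 1.1e-05). Il6ra fell by 0.89 (adjusted p = 0.013), a call lost without the filter, and its difference was -0.49 without R111A replicate 2 and -1.30 without R111A replicate 1.

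Of the 4 JAK kinases, Jak3, which pairs with the common gamma chain, fell from 25.52 and 25.74 FPKM to 14.41 and 12.67 FPKM (adjusted p = 0.00094). Tyk2 fell by 0.52 (adjusted p = 0.011), a call lost without either WT replicate (adjusted p from 0.00039 to 0.17 over 14 alternatives). Jak1 had levels of 81.36 and 75.7 FPKM (WT) and of 112.85 and 90.99 FPKM (R111A) (adjusted p = 0.062), passing under 4 of 14 alternatives, and Jak2 did not pass. Among other STAT genes, Stat2, which acts in type I interferon signalling, rose by 1.15 (adjusted p = 0.0011). Stat3 (-0.36, adjusted p = 0.13) did not pass, although it did on TPM (-0.693) and without R111A replicate 1 (-0.638), and its difference was -0.092 without R111A replicate 2. Stat4 and Stat6 did not pass.

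The remaining SOCS genes and the ligase that the SOCS box recruits were also read: of 10 genes, 3 were lower and 0 higher, against 32.1% and 21.2% of all tested genes. Rnf7, the RING subunit of the CUL5 ligase, fell from 85.06 and 100.61 FPKM to 41.15 and 40.8 FPKM (adjusted p = 0.00021), and Cul2 fell by 1.18 (adjusted p = 0.00073). Socs5 was the other lower gene. Cul5, Elob and Eloc, which complete the ligase, did not pass. Of 13 other inhibitors of JAK-STAT signalling, 4 were higher and 5 lower, against 21.2% and 32.1% of all tested genes. The phosphatase genes Ptpn11 and Ptpn6 (SHP-2 and SHP-1) both changed: Ptpn11 fell by 1.61 (adjusted p = 3.3e-05) and Ptpn6 fell by 1.39 (adjusted p = 4.9e-05). Sh2b3, which encodes the adaptor LNK, rose by 0.89 (adjusted p = 0.00081). Cblb, a ubiquitin ligase that restrains T cell activation, rose by 0.56 (adjusted p = 0.0096), a call lost on TPM and without either WT replicate.

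Of 20 known targets of STAT5 tested, 10 were lower and 7 higher, against 32.1% and 21.2% of all tested genes. Their median of -0.34 was 0.03 when genes below a mean of 5 FPKM were left out, -0.11 without a filter and -0.64 on TPM. Bcl2l1, the gene of the survival protein BCL-XL, fell from 88.55 and 95.78 FPKM to 24.83 and 18.94 FPKM (adjusted p = 2.7e-05). The cell cycle gene Ccnd2 (cyclin D2) fell from 290.66 and 299.98 FPKM to 62.3 and 74.44 FPKM (adjusted p = 1.2e-05). Tbx21, which encodes the Th1 factor T-bet, fell by 2.57 (adjusted p = 3.0e-05), and Myc, a driver of growth, fell by 1.02 (adjusted p = 0.0019). The genes that rose furthest were Il7r and Bcl6, both of which STAT5 represses in T cells, and the other 5 higher genes, Tnfrsf9 (1.34), Prf1 (0.94), Ccnd3 (0.74), Bcl2 (0.66) and Mcl1 (0.47), are ones it is known to induce. Bcl6, the factor of follicular helper cells, rose from 7.2 and 5.95 FPKM to 37.28 and 30.46 FPKM (adjusted p = 2.0e-05). Prf1, at only 0.51 and 0.78 FPKM without the transgene, cleared the filter because of its R111A levels (2.57 and 1.78 FPKM). Gzmb, among the 10 lower targets, cleared it because of its WT levels (7.07 and 6.67 FPKM), against 0.1 and 0.77 FPKM with the transgene. The directions of Prf1 and Gzmb therefore add nothing to the counts.

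Genes of PIM substrates were read because the kinases act on their proteins, so their transcripts are no measure of PIM activity. Of 15 tested, 7 were higher and 4 lower, against 21.2% and 32.1% of all tested genes, with a median of 0.48 that was 0.155 on TPM and 0.204 without R111A replicate 1. Cdkn1a, which encodes the cell cycle inhibitor p21, rose from 14.29 and 15.45 FPKM to 266.09 and 206.54 FPKM (adjusted p = 2.7e-06). Myb, which encodes a transcription factor of lymphoid progenitors, rose by 2.65 (adjusted p = 5.2e-06). In the other direction, the phosphatase gene Cdc25a, which drives entry into S phase, fell by 1.73 (adjusted p = 2.9e-05) and the heterochromatin gene Cbx3 fell by 1.66 (adjusted p = 7.5e-05).

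**Figure D4:**
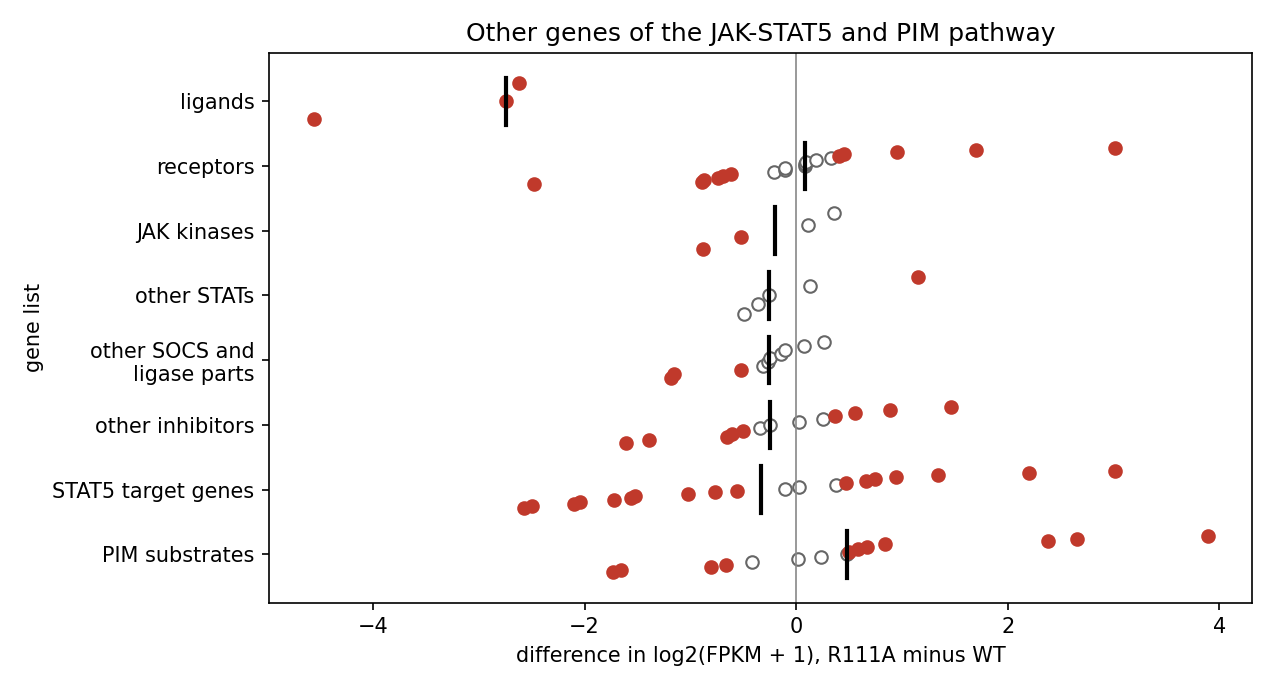
Difference in log2(FPKM + 1), R111A minus WT, of each tested gene in the 8 pathway lists, with filled points for an adjusted p under 0.05 in limma and a black bar at each list's median. Il2ra and Il7r appear under receptors and under STAT5 targets. The ligands lie to the left (Il2 at -4.56), and the other lists hold genes on both sides or near 0.

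Regnase-1 cleaves mRNAs at stem-loops in the 3′UTR that carry a pyrimidine, a purine and a pyrimidine in the loop. Such stem-loops were predicted in windows of 100 nt with loops of 3 to 6 nt and stems of more than 2 base pairs, of which at least 1 was G-C. Of 9706 tested genes with an annotated 3′UTR, 83.2% had at least 1, and the median density was 2.5 per kb (quartiles 1.42 and 3.55). All 9 members had at least 1 in the longest GENCODE 3′UTR. The 5 of Socs1 all lie beyond the end of its RefSeq gene (chr16:10783808, minus strand). Its density therefore holds only for the longer GENCODE 3′UTR. Pim2 had 4 in 915 bases (4.37 per kb), Pim1 had 6 in 1365 bases (4.4 per kb) and Socs2 had 5 in 1163 bases (4.3 per kb), denser than in 86.8%, 87.1% and 86.1% of genes. Pim3 had 1 (1.04 per kb), and Cish (2.22), Socs1 (2.51), Socs3 (2.71), Stat5a (2.56) and Stat5b (3.38) lay within the quartiles. Pim1 and Pim2 were alike in density, and a link between density and direction of change was not tested. The stem-loop of Pim2 with the longest stem, 7 base pairs around a loop of 6 nt, is in its 3′UTR at chrX:7882580-7882599 on the plus strand (GRCm38), with the 3 bases in capitals. That of Pim1, 6 base pairs around a loop of 5 nt, is at chr17:29495230-29495246 on the plus strand.
Pim2: ugaccugguUAUacagguug
Pim1: aaacucUGCcuggguuu
Such structures occur in most genes, and cleavage at either one was not tested.

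The directions of the 9 genes were the same under each of the 14 processing alternatives in which a value was obtained, and their sizes were not. Rescaling to TPM moved the median of all tested genes from -0.12 to -0.42, since the FPKM values of the R111A libraries sum to more (1053551 and 1012215, against 801475 and 836143 in WT). On TPM the difference of Pim1 was 0.69, that of Pim3 0.14 and that of Socs3 0.21. Taken relative to the median gene, Pim1 lay between 1.11 and 1.28 over the deposited values, TPM, median-of-ratios and quantile scaling. On the same footing Pim2 lay between -3.20 and -3.08, Cish between -2.86 and -2.76 and Socs2 between -2.35 and -2.02. Socs1 lay between -0.72 and -0.58, Stat5a between -0.67 and -0.49 and Stat5b between -0.37 and -0.25. Pim3 lay between 0.56 and 0.73 and Socs3 between 0.55 and 0.62. The differences of Pim2 and Cish were thus much larger than any shift between scalings, and the difference of Stat5b was close to the size of the TPM shift of -0.30.

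**Figure D5:**
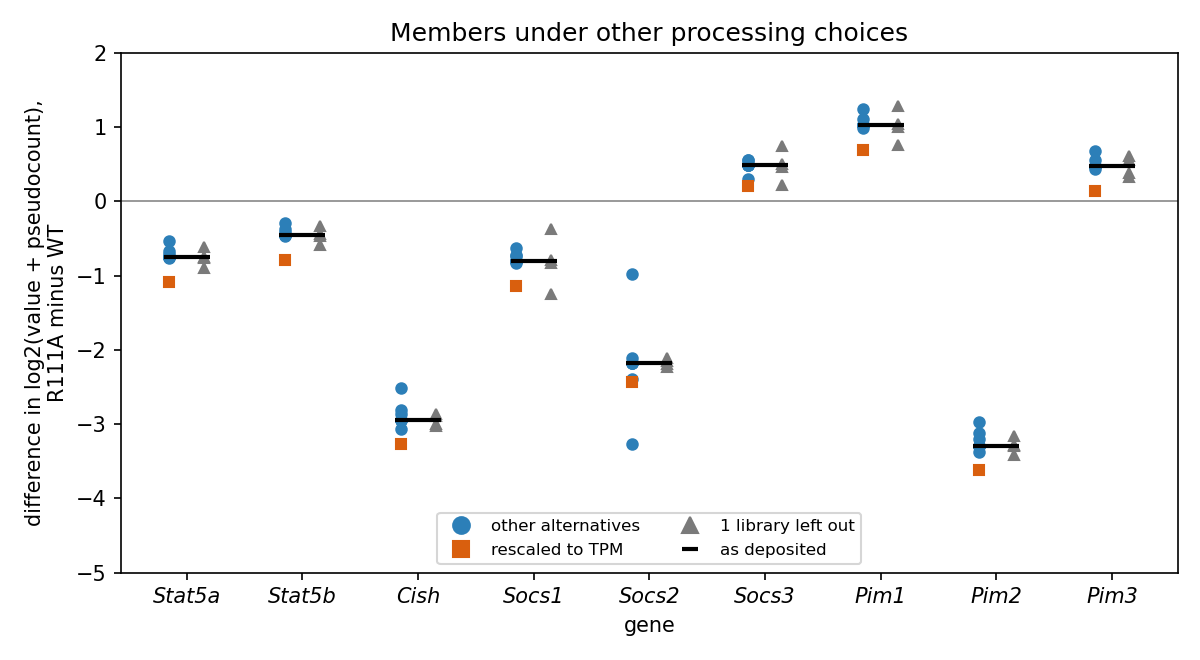
Difference of each of the 9 genes, R111A minus WT, as deposited (black bars), on TPM (orange squares), under the other alternatives (blue circles) and with each library left out (grey triangles). No point crosses 0, Socs2 spreads from -3.26 to -0.98 with the pseudocount, and Socs1 moves most when an R111A library is left out.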

How the data were processed

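The authors aligned reads of polyA RNA to mm10 with Bowtie2 (version 2.4.4), estimated expression with RSEM (version 1.2.28) and deposited FPKM values for 4 libraries; other columns of per-sample values left out numbered 0. FPKM values are not counts, so the depth behind a value is unknown. The test was limma 3.58.1 in R 4.3.3 on log2(FPKM + 1), by eBayes with trend. Benjamini-Hochberg adjustment ran over the 9831 genes whose mean reached 1 FPKM. The procedure was tested on simulated data. Those had fewer changed genes than these data and equal spread in both groups, so that test gives no error rate for the calls here. With 2 libraries against 2, the smallest two-sided p of an exact permutation test is 0.333, and none was run. The members and the gene lists were chosen with earlier results of these data known. Named genes were the members, Zc3h12a, 10 fixed genes of the pathway, the called genes with the 2 largest differences in each direction of each list among genes whose mean reached 5 FPKM, and the nearest profiles; some genes of the lists are counted in totals but not reported here. Markers and genes named only to complete a list were chosen after their values were seen. Promoters came from RefSeq (GRCm38.p6) by NCBI gene ID, and stem-loops from the longest 3′UTR per gene of GENCODE transcripts (GRCm38) with RNAfold 2.7.2. Other steps used python 3.11.15 with numpy 2.4.6, pandas 2.3.3 and matplotlib 3.10.9. Pseudocounts, filters, scalings, moderation settings and the left-out library were varied.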

Additional observations from a re-analysis of the deposited data

How the results depend on the processing

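Over 14 alternatives the 9 members gave 125 values, none with a changed sign; Socs2 had no value with a filter at 5 FPKM. Of 434 values of the other named genes, 407 kept their direction and side of the threshold, and 1 changed sign, Il2ra under quantile normalization (0.132). Medians changed sign for receptors on TPM (-0.245) and without R111A replicate 1 (-0.081 to 0.095 over the left-out libraries), and for STAT5 targets with the filter at 5 FPKM (0.029). Counts of called genes moved by over 1.5 times as follows; the cause was not tested except where fewer genes or libraries entered. With both thresholds, 838 genes were higher and 820 lower; adding 5 FPKM gave 386 and 402, with the filter at 5 FPKM 521 were higher, and on TPM 1756 were lower. By the adjusted p alone, 2088 were higher and 3152 lower, and on TPM 1337 and 5128. With a library left out, lower calls ranged from 1903 to 3883, lowest without a WT library. Of the pathway genes, 23 were higher, against 15 on TPM and 15 to 29 with a library left out. With a library left out, its group has 1 sample, which is assumed to vary like the other group.

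With the replicate number as a term (replicate block), 2236 genes were higher and 3358 lower by the adjusted p alone, and Jak1 and Stat3 passed. The correlation of the replicate deviations between the groups was 0.111. The labels tie the replicate number to no batch or day, and whether libraries of the same number share one was not tested. Precision is limited by 2 libraries per group and by unknown read numbers.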
